A study of Mus musculus with 58 samples.

Results

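Interferon-stimulated genes are the genes that cells switch on when interferon reaches its receptors. The 41 genes described here were taken by name from such a set, through the gene symbol of each probe set's platform annotation, and 38 of them had a row among the 17216 named genes measured. The set was chosen with earlier results of these data known. Its counts are therefore set beside the shares over all genes as a description only. Ifit3, Isg15 and Ifi44 had no row under these symbols and were not analysed here. RNA of brain tissue from 30 mice aged 8 months was measured on 58 Affymetrix arrays. All mice were on the C57BL/6J background. Transgenic mice (TG) of the APP/PS1 line carried 2 constructs, APP with the KM670/671NL change and PS1 with the L166P change, both placed under the Thy1 promoter, which drives expression in neurons. Wild-type mice (WT) were the controls. In the frontal cortex there were 6 female TG, 6 female WT, 8 male TG and 8 male WT arrays, and in the hippocampus 7 female TG, 7 female WT, 8 male TG and 8 male WT arrays. Females carried mouse numbers from 1 to 14 and males from 38 to 53, and the labels do not say whether the sexes were processed together, so a difference between the sexes and one between batches of animals cannot be told apart.

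Type I interferons act through a receptor made of Ifnar1 and Ifnar2, whose kinases phosphorylate transcription factors of the STAT family, Stat2 among them. With Irf9 these form a complex that binds a short DNA element, the interferon-stimulated response element, in the promoters of its targets. Interferon gamma acts through Ifngr1 and Ifngr2 and a second element, the gamma-activated site. The products of the target genes sense foreign nucleic acid, block viral entry, translation and release, and feed back on the signal. In the brain, microglia, the resident macrophages, are a known site of this response around amyloid plaques and in ageing.

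The promoter windows of the members show how these elements recur in the set. RefSeq promoters (GRCm38.p6, from 250 bases before to 50 bases after the start) were found for 28 of the 38 members. The response element, searched as GAAANNGAAA on both strands, stood in 13 of these 28 promoters (46.4%), against 1079 of the 27025 genes with a promoter window (3.99%). The gamma-activated site, searched as TTCNNNGAA, stood in 8 of the 28 (28.6%), against 2582 of all genes (9.55%). Both counts are letter matches only, and matches of one motif can overlap. A stretch of 80 bases around the matches is shown for 6 members, with the response element in capitals, because the sites lie at a like distance from the start in 3 guanylate-binding genes and occur in pairs in 3 of the 6. The stretches are read 5′ to 3′ on the gene's own strand. The motif reads forward in Bst2 and on the opposite strand in the other 5.
Ifit1: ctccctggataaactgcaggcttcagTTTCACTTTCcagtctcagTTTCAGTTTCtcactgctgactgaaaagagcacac
Bst2: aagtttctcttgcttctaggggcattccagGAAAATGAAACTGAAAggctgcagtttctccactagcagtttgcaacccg
Rsad2: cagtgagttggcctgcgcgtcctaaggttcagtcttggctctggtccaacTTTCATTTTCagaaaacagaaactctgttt
Gbp2: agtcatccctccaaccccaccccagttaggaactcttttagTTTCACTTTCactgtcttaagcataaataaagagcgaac
Gbp3: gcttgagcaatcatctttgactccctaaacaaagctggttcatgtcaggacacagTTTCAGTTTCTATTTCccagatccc
Gbp7: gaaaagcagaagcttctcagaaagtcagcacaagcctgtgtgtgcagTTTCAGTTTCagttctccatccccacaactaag
The stretch of Ifit1 lies at chr19:34640759-34640838 on the plus strand, that of Bst2 at chr8:71537553-71537632 on the minus strand and that of Rsad2 at chr12:26456543-26456622 on the minus strand. Those of the guanylate-binding genes lie on the plus strand, at chr3:142620563-142620642 for Gbp2, chr3:142559944-142560023 for Gbp3 and chr3:142530236-142530315 for Gbp7. Ifit1 holds 2 separate matches, while the response element matches overlap each other in Bst2 and in Gbp3. A gamma-activated site match overlaps a response element match in the promoters of Bst2 and Ifitm3.

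Some libraries stood apart. Thy1, whose promoter drives both constructs, lay between 11.90 and 12.38 on the log2 scale in 28 TG arrays and between 10.55 and 11.42 in the 29 WT arrays. The library labelled female TG hippocampus of mouse 7 was at 10.92, within the WT range, so it goes against its label. The library labelled female TG hippocampus of mouse 4 went against its region in its hippocampal field markers. Their mean, over 10 markers, was 5.76, against 6.99 to 7.54 in the other female TG hippocampus arrays. The frontal cortex arrays of female TG mice lay between 5.60 and 5.83. The library's mean of 9 cortical layer markers was 6.59, against 5.99 to 6.17 in the other 6 arrays of its group. This was below the female TG frontal cortex range of 6.65 to 6.99 and near the highest female WT hippocampus array, 6.56. The library's 7 oligodendrocyte markers averaged 9.64, against 7.44 to 8.13 in female TG frontal cortex. On these last lists it was not at frontal cortex level. In the frontal cortex array of mouse 4, 8 blood cell markers averaged 5.37, against 3.18 to 3.35 in the other female TG arrays, and 10 markers of meninges and fibroblasts averaged 5.77. Choroid plexus markers, of a tissue that adjoins the hippocampus, averaged above 6 in 5 of 8 male TG, 1 of 8 male WT, 1 of 7 female TG and 1 of 7 female WT hippocampus arrays. The array values ran from 2.28 to 13.58, no detection calls were used, and the number of arrays limits the precision.

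In the frontal cortex most of the members were higher in TG mice. In females 31 of the 38 members were higher in TG than in WT mice and none was lower (limma, Benjamini-Hochberg adjusted p under 0.05), where 8.75% of all genes were called higher and 10.2% lower. In males 32 were higher and none was lower, where 8.8% of all genes were called higher and 11.7% lower. The median change of the members was 0.71 log2 units in females and 0.68 in males, beside medians of -0.01 and -0.02 over all genes. Every TG array lay above every WT array for 25 members in females (4.5% of all genes) and for 20 in males (3.08%). Both sexes shared 28 calls. Ifitm2, Slfn2 and Zbp1 passed in females alone and Cmpk2, Dhx58, Slfn5 and Sp100 in males alone, and none of these 7 passed a test of the sex difference. Herc6, Mx2 and Oas2 passed in neither sex. The arrays measured dissected tissue, so more cells of a type and more RNA per cell cannot be told apart.

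**Figure D1:**
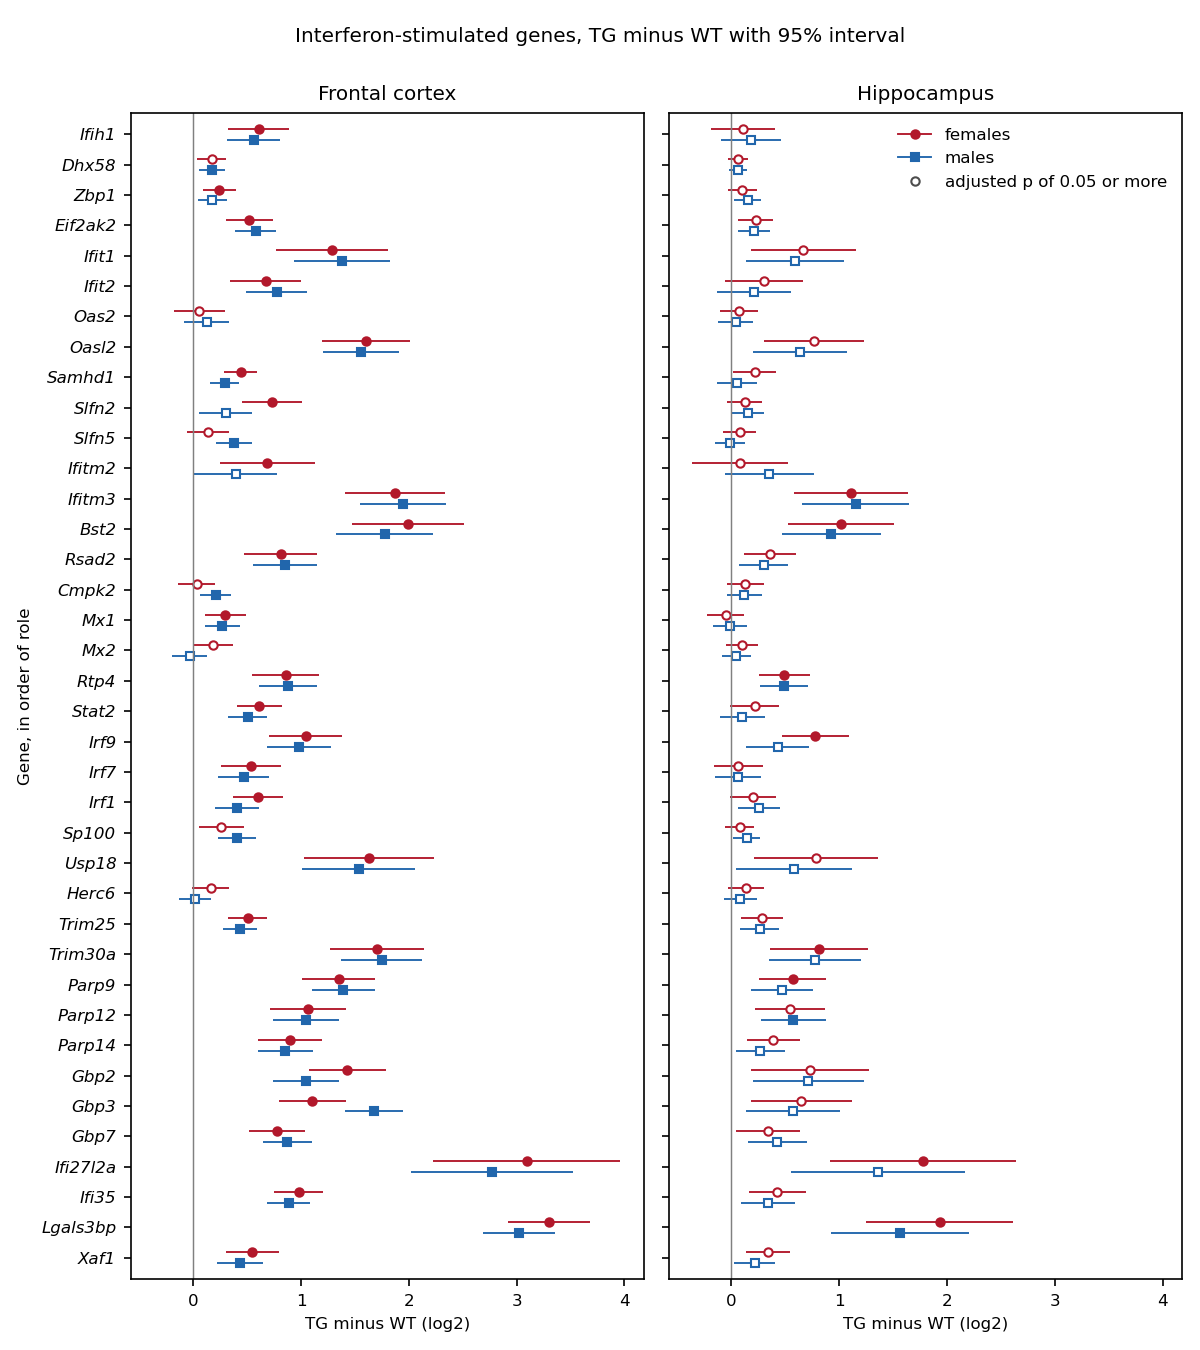
The TG minus WT difference of each of the 38 genes (log2 units, horizontal axis) with its 95% interval, in the frontal cortex (left) and hippocampus (right), for females (red circles) and males (blue squares); open symbols have an adjusted p of 0.05 or more. In the cortex most symbols are filled and to the right of 0, with Lgals3bp at 3.30 in females and 3.03 in males, while in the hippocampus 8 female and 5 male symbols are filled.

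In the hippocampus the same direction was seen with fewer calls. In females 8 members were higher in TG mice and none was lower, where 1.54% of all genes were called higher and 0.929% lower, and in males 5 were higher and none lower, where 1.04% of all genes were called higher and 0.261% lower. Bst2, Ifitm3, Lgals3bp and Rtp4 passed in both sexes and so in all 4 comparisons. Ifi27l2a, Irf9, Parp9 and Trim30a also passed in females and Parp12 in males. Of the 38 differences 37 were positive in females and 36 in males, with medians of 0.32 and 0.27 beside -0.01 over all genes in each sex. At an unadjusted p under 0.05, 22 members were past it in females, where 13.9% of all genes were, and 25 in males, where 13.6% were. The only member whose TG arrays all lay above the WT arrays was Ifi27l2a in females (0.197% of all genes) and Gbp3 in males (0.68%). Without the library of mouse 4 the female calls numbered 6, with Parp9 and Trim30a lost, without that of mouse 7 they numbered 12, and without both they numbered 7, with Bst2 lost. Both counts moved with the arrays fitted: leaving out single arrays gave 3 (without mouse 11) to 14 (without mouse 8) in females and 2 (without WT mouse 49 or TG mouse 53) to 13 (without female TG mouse 4, whose spread the 4 groups share in the fit) in males. With the choroid plexus mean as a covariate the male count was 0, while the median male change was 0.25, against 0.27 without it, and 36 of 38 differences were positive in each fit. Single calls differed in how often they were lost over the alternatives, of which 30 left out single arrays and so were much alike. In females Irf9 was lost in 1 of 42, Bst2 in 3 of 41 and Trim30a and Parp9 in 14 of 41 each. In males Lgals3bp and Ifitm3 were lost in 2 of 42 each, Rtp4 in 4 of 41, Bst2 in 14 of 41 and Parp12 in 22 of 42. Fitting the compared groups alone kept 1 of the 8 female calls, that of Lgals3bp, and gave 15 calls in males.

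Group values are given below as the lowest, the median and the highest array, in log2 units. The factors that carry the signal were higher in the TG cortex. Stat2, a subunit of the interferon-activated complex, lay at 5.21, 5.62 and 5.85 in female TG cortex, against 4.57, 4.98 and 5.08 in female WT cortex. In males it lay at 5.21, 5.53 and 5.62 in TG cortex, against 4.81, 4.92 and 5.15 in WT cortex. No TG array overlapped the WT arrays in either sex, and the change was 0.61 (SE 0.10, adjusted p = 6.15e-05) in females and 0.51 (SE 0.09, adjusted p = 0.000108) in males. In the hippocampus Stat2 spanned 4.64, 5.17 and 5.49 in female TG and 4.60, 4.86 and 5.35 in female WT arrays, and 4.82, 4.98 and 5.28 in male TG and 4.81, 4.92 and 5.07 in male WT arrays. These groups overlapped, and neither sex passed.

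Irf9, the DNA-binding subunit of the complex, was at 4.92, 5.74 and 6.14 in female TG cortex, against 4.34, 4.62 and 4.73 in female WT cortex. In males the TG cortex gave 5.17, 5.89 and 6.13, against 4.48, 4.95 and 5.08 in the WT cortex. All TG arrays were above all WT arrays, and the gene rose 2.06-fold (95% interval 1.63 to 2.61) in females and 1.97-fold (95% interval 1.61 to 2.42) in males. Irf9 also rose in the female hippocampus, by 0.78 (SE 0.15, adjusted p = 0.0046), with TG arrays at 4.76, 5.31 and 5.91 and WT arrays at 4.17, 4.64 and 4.92. In the male hippocampus its values were 4.52, 5.09 and 5.34 in TG and 4.16, 4.57 and 4.88 in WT mice, a difference of 0.43 (SE 0.14, adjusted p = 0.149). It kept its female hippocampus call without mouse 4, at 0.71 (adjusted p = 0.0115), and without mouse 7, at 0.87 (adjusted p = 0.000733).

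Irf7 amplifies interferon production. Female TG cortex arrays held 3.76, 4.04 and 4.83 and female WT arrays 3.36, 3.58 and 3.75. Male TG cortex arrays held 3.63, 4.09 and 4.27 and male WT arrays 3.25, 3.59 and 3.91. The female groups just did not touch and the male groups overlapped, with changes of 0.54 (SE 0.13, adjusted p = 0.00478) and 0.47 (SE 0.12, adjusted p = 0.00395). In the hippocampus the medians were 3.46 in female TG and 3.59 in female WT arrays, and 3.54 in male TG and 3.49 in male WT arrays, with ranges that overlapped throughout and changes of 0.07 (SE 0.11) and 0.06 (SE 0.10) that did not pass. Irf1, a factor that interferon gamma induces strongly, lay at 5.29, 5.75 and 5.83 in female TG cortex, against 4.97, 5.03 and 5.28 in female WT cortex. Its male cortex values were 5.22, 5.62 and 5.73 in TG and 4.84, 5.13 and 5.56 in WT arrays. The change was 0.60 (SE 0.11, adjusted p = 0.000332) in females, whose groups just did not overlap, and 0.40 (SE 0.10, adjusted p = 0.0038) in males, whose groups did. In the hippocampus Irf1 ran at 4.93, 5.42 and 5.52 in female TG and 4.77, 5.28 and 5.41 in female WT arrays, and at 5.20, 5.41 and 5.51 in male TG and 4.75, 5.13 and 5.39 in male WT arrays, and neither sex passed. The nuclear body gene Sp100 changed by 0.41 (SE 0.09, adjusted p = 0.00121) in the male cortex and by 0.26 (SE 0.10, adjusted p = 0.07) in the female cortex.

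Among the sensors, Ifih1 encodes MDA5, which binds long double-stranded RNA. It was at 3.97, 4.33 and 5.20 in female TG cortex, against 3.52, 3.84 and 4.16 in female WT cortex, and at 4.02, 4.30 and 4.62 in male TG cortex, against 3.64, 3.75 and 3.97 in male WT cortex. The male groups were apart and the female groups overlapped, and both rose, by 0.61 (SE 0.14, adjusted p = 0.00229) and 0.56 (SE 0.12, adjusted p = 0.00112). Its hippocampus values were 3.49, 3.78 and 4.89 in female TG, 3.49, 3.78 and 4.07 in female WT, 3.41, 3.96 and 4.16 in male TG and 3.46, 3.66 and 4.06 in male WT arrays. The female medians were equal at this rounding, mouse 4 held the top value, and neither sex passed. Eif2ak2 encodes PKR, the kinase that stops translation on binding double-stranded RNA. Its cortex values were 4.33, 4.51 and 4.97 in female TG and 3.96, 4.06 and 4.14 in female WT arrays. Male cortex arrays gave 4.46, 4.67 and 5.17 in TG and 3.88, 4.08 and 4.43 in WT mice. The groups did not overlap in either sex, with changes of 0.52 (SE 0.11, adjusted p = 0.000807) and 0.58 (SE 0.09, adjusted p = 3.67e-05). In the hippocampus Eif2ak2 was at 4.02, 4.19 and 4.67 in female TG and 3.99, 4.03 and 4.11 in female WT arrays, and at 4.03, 4.19 and 4.44 in male TG and 3.81, 4.0 and 4.18 in male WT arrays, and it did not pass. The other sensors moved less, and they were also dimmer. By mean level over all arrays Zbp1 was at percentile 25.7 and Dhx58 at 7.9 of all genes. Ifih1 was at 39.4 and Eif2ak2 at 43.7. The part of this low level in their smaller changes was not tested. Zbp1, which binds Z-form nucleic acid, changed by 0.24 (SE 0.08, adjusted p = 0.0233) in the female cortex and by 0.18 (SE 0.07, adjusted p = 0.0552) in the male cortex. Dhx58, the LGP2 helicase that tunes RNA sensing, changed by 0.18 (SE 0.06, adjusted p = 0.0302) in the male cortex and by 0.17 (SE 0.07, adjusted p = 0.0761) in the female cortex.

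The RNA-binding and nucleotide-acting effectors were led by Oasl2, an oligoadenylate synthetase-like protein. It lay at 4.12, 4.90 and 6.08 in female TG cortex, against 3.18, 3.44 and 3.53 in female WT cortex. Male TG cortex arrays were at 4.42, 4.93 and 5.36, against 3.09, 3.36 and 3.61 in male WT cortex. The lowest TG array was above the highest WT array in both sexes, and the rise was 3.04-fold (95% interval 2.29 to 4.04) in females and 2.94-fold (95% interval 2.3 to 3.76) in males. In the hippocampus it was at 3.32, 3.93 and 5.41 in female TG and 3.09, 3.34 and 3.59 in female WT arrays, and at 3.40, 3.96 and 4.58 in male TG and 3.2, 3.38 and 3.52 in male WT arrays. There the groups overlapped at their lower ends, and the differences were 0.77 (SE 0.23, adjusted p = 0.0628) and 0.64 (SE 0.21, adjusted p = 0.145). Ifit1, which binds the ends of foreign RNA, rose by 1.29 (SE 0.25, adjusted p = 0.000496) in the female and 1.38 (SE 0.22, adjusted p = 3.14e-05) in the male cortex. Female TG cortex arrays of Ifit1 lay between 3.91 and 6.09, against 3.17 to 3.79 in female WT cortex. Its relative Ifit2 rose by 0.67 (SE 0.16) and 0.78 (SE 0.14), and Samhd1, which breaks down deoxynucleotides, by 0.44 (SE 0.07) and 0.29 (SE 0.06).

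Slfn2, a Schlafen gene needed for the quiescent state of T cells, passed in the female cortex and in no other comparison of TG with WT mice. It was at 3.86, 4.41 and 4.87 in female TG cortex, against 3.46, 3.60 and 3.90 in female WT cortex, a change of 0.73 (SE 0.14, adjusted p = 0.000279). In males it was at 3.75, 4.11 and 4.61 in TG cortex, against 3.60, 3.80 and 4.03 in WT cortex, with 0.30 (SE 0.12, adjusted p = 0.0713). The groups overlapped in both sexes. Hippocampus values were 3.54, 3.61 and 4.34 in female TG, 3.57, 3.59 and 3.63 in female WT, 3.51, 3.66 and 3.78 in male TG and 3.36, 3.48 and 3.61 in male WT arrays, with the highest female TG value in mouse 4. Slfn5 changed by 0.38 (SE 0.08, adjusted p = 0.0013) in the male cortex and by 0.14 (SE 0.09, adjusted p = 0.339) in the female cortex. Oas2, which makes the oligoadenylates that switch on RNase L, differed by 0.04 to 0.12 log2 units between TG and WT mice in the 4 comparisons and did not pass.

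Effectors at membranes held some of the larger rises. Ifitm3, which blocks fusion of viral with cell membranes, was at 8.28, 9.02 and 10.10 in female TG cortex, against 6.87, 7.27 and 7.64 in female WT cortex. Male TG cortex arrays lay at 8.39, 8.83 and 9.31, against 6.41, 6.94 and 7.59 in male WT cortex. The groups were apart in both sexes, with rises of 3.67-fold (95% interval 2.66 to 5.06) and 3.85-fold (95% interval 2.92 to 5.09). In the hippocampus Ifitm3 was at 7.04, 7.97 and 9.53 in female TG, against 6.57, 7.20 and 7.48 in female WT arrays, and at 7.19, 7.99 and 8.61 in male TG, against 6.42, 6.85 and 7.44 in male WT arrays. The hippocampus groups overlapped and both sexes passed, by 1.11 (SE 0.26, adjusted p = 0.0157) and 1.16 (SE 0.24, adjusted p = 0.0112). The nearby gene Ifitm2 changed by 0.69 (SE 0.22, adjusted p = 0.0236) in the female cortex and by 0.39 (SE 0.19, adjusted p = 0.143) in the male cortex. Whether probes of such related genes share signal was not tested.

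Bst2 encodes tetherin, which holds budding virus at the cell surface. Its values were 4.86, 6.15 and 6.93 in female TG cortex, against 3.91, 4.10 and 4.24 in female WT cortex. The male TG cortex gave 5.09, 5.90 and 6.53, against 3.56, 3.87 and 4.91 in the male WT cortex. The groups were apart in both sexes, and Bst2 rose 3.99-fold (95% interval 2.79 to 5.72) in females and 3.43-fold (95% interval 2.51 to 4.68) in males. Its hippocampus arrays were at 4.10, 5.01 and 6.20 in female TG, against 3.82, 4.25 and 4.39 in female WT arrays, and at 4.47, 5.35 and 5.84 in male TG, against 3.64, 4.28 and 5.30 in male WT arrays. The highest male WT value came from mouse 52, the male WT hippocampus array with the most choroid plexus signal, and both sexes passed, by 1.02 (SE 0.24, adjusted p = 0.0177) and 0.93 (SE 0.23, adjusted p = 0.0331). Without the library of mouse 4 the female value was 0.85 (adjusted p = 0.0434), and without those of mice 4 and 7 it was 0.85 (adjusted p = 0.0519). Rtp4, a chaperone of receptor transport, rose in all 4 comparisons: by 0.86 (SE 0.15) and 0.88 (SE 0.13) in female and male cortex and by 0.49 (SE 0.12) and 0.49 (SE 0.11) in female and male hippocampus.

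Rsad2 encodes viperin, which makes a chain-terminating nucleotide, and lies next to Cmpk2, a nucleotide kinase gene, on chromosome 12. Rsad2 was at 4.09, 4.21 and 5.37 in female TG cortex, against 3.54, 3.65 and 3.78 in female WT cortex, and at 3.87, 4.61 and 4.82 in male TG cortex, against 3.37, 3.67 and 3.99 in male WT cortex. It rose by 0.81 (SE 0.17, adjusted p = 0.000766) in females, without overlap, and by 0.85 (SE 0.14, adjusted p = 7.42e-05) in males, with overlap. Cmpk2 differed by 0.03 (SE 0.08, adjusted p = 0.847) in females and 0.21 (SE 0.07, adjusted p = 0.0354) in males, with ranges that overlapped in both. The hippocampus values of Rsad2 were 3.54, 3.85 and 4.56 in female TG, 3.41, 3.54 and 3.73 in female WT, 3.64, 3.98 and 4.25 in male TG and 3.50, 3.60 and 4.02 in male WT arrays, and it did not pass there. Mx1, a dynamin-like GTPase whose protein is non-functional in C57BL/6 mice, was at 3.28, 3.61 and 3.93 in female TG cortex, against 3.2, 3.30 and 3.48 in female WT cortex, and at 3.30, 3.62 and 3.75 in male TG cortex, against 3.23, 3.27 and 3.45 in male WT cortex. These overlapping groups differed by 0.30 (SE 0.09, adjusted p = 0.0221) and 0.27 (SE 0.08, adjusted p = 0.0157). In the hippocampus Mx1 lay at 3.09, 3.26 and 3.44 in female TG, 3.10, 3.28 and 3.53 in female WT, 3.05, 3.29 and 3.53 in male TG and 3.17, 3.30 and 3.51 in male WT arrays, with no difference past the threshold. Its relative Mx2 did not pass, with 0.19 (SE 0.09, adjusted p = 0.168) in the female and -0.03 (SE 0.08, adjusted p = 0.836) in the male cortex.

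Usp18 removes the ubiquitin-like protein Isg15 from its targets and damps receptor signalling. It varied widely among TG mice, at 3.96, 5.41 and 6.68 in female TG cortex, against 3.43, 3.58 and 3.91 in female WT cortex. The male TG cortex held 4.24, 5.06 and 6.13, against 3.44, 3.66 and 3.89 in the male WT cortex. All TG arrays were above all WT arrays, and the rise was 3.09-fold (95% interval 2.03 to 4.69) in females and 2.9-fold (95% interval 2.02 to 4.16) in males. Hippocampus arrays lay at 3.68, 4.15 and 6.36 in female TG, against 3.42, 3.74 and 4.05 in female WT arrays, and at 3.62, 4.27 and 5.16 in male TG, against 3.53, 3.77 and 3.97 in male WT arrays. Neither hippocampus difference passed, at 0.78 (SE 0.28, adjusted p = 0.156) and 0.58 (SE 0.26, adjusted p = 0.315). Herc6, the main ligase for Isg15 in the mouse, differed by 0.16 (SE 0.08, adjusted p = 0.191) and 0.02 (SE 0.07, adjusted p = 0.906) in female and male cortex. Trim25, a ubiquitin ligase that acts on RNA sensing, rose by 0.51 (SE 0.09) and 0.44 (SE 0.08).

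Trim30a, a mouse TRIM protein known to restrain Toll-like receptor signalling, lay at 4.65, 5.40 and 6.25 in female TG cortex, against 3.42, 3.84 and 3.92 in female WT cortex. In males it lay at 4.58, 5.45 and 6.12 in TG cortex, against 3.54, 3.62 and 3.92 in WT cortex. The groups were far apart, and the rise was 3.25-fold (95% interval 2.41 to 4.4) in females and 3.36-fold (95% interval 2.59 to 4.36) in males. Hippocampus arrays were at 3.60, 4.26 and 5.72 in female TG, against 3.44, 3.60 and 3.85 in female WT mice, and at 3.64, 4.29 and 4.83 in male TG, against 3.36, 3.53 and 3.67 in male WT mice. The female difference passed at 0.82 (SE 0.22, adjusted p = 0.0422), and the male one just missed at 0.78 (SE 0.21, adjusted p = 0.0534). Without the library of mouse 4 the female difference was 0.61 (adjusted p = 0.0885).

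All 3 ADP-ribosyltransferases rose in the cortex of both sexes. Parp9, which works with the ligase Dtx3l, was at 5.13, 5.59 and 6.30 in female TG cortex, against 3.83, 4.33 and 4.60 in female WT cortex, and at 5.46, 5.78 and 6.40 in male TG cortex, against 4.22, 4.37 and 4.94 in male WT cortex. The groups did not overlap, and it rose 2.55-fold (95% interval 2.02 to 3.22) and 2.63-fold (95% interval 2.14 to 3.22). In the hippocampus it was at 4.52, 4.96 and 5.92 in female TG, 4.07, 4.49 and 4.56 in female WT, 4.44, 4.96 and 5.14 in male TG and 3.94, 4.49 and 4.71 in male WT arrays. It passed in females, at 0.57 (SE 0.15, adjusted p = 0.0381), and not in males, at 0.47 (SE 0.14, adjusted p = 0.102), and without mouse 4 the female value was 0.41 (adjusted p = 0.0706). Parp14, which adds single ADP-ribose units, was at 3.79, 4.55 and 4.96 in female TG cortex, against 3.47, 3.62 and 3.71 in female WT cortex, and at 4.17, 4.51 and 5.04 in male TG cortex, against 3.46, 3.59 and 4.08 in male WT cortex. Its groups did not overlap in either sex, with 0.90 (SE 0.14, adjusted p = 4.04e-05) and 0.86 (SE 0.13, adjusted p = 1.01e-05). Hippocampus values of Parp14 were 3.55, 3.88 and 4.58 in female TG, 3.48, 3.58 and 3.63 in female WT, 3.40, 4.0 and 4.40 in male TG and 3.50, 3.69 and 3.78 in male WT arrays, and it did not pass. The zinc-finger member Parp12 rose by 1.07 (SE 0.17) and 1.05 (SE 0.15) in female and male cortex and by 0.57 (SE 0.15, adjusted p = 0.0455) in the male hippocampus, a call lost in 22 of 42 alternatives.

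The guanylate-binding proteins, GTPases that attack the vacuoles of intracellular pathogens, all rose in the cortex. These 3 genes lie close together on chromosome 3, and Gbp7 and Gbp3 are neighbours. Gbp3 was at 5.38, 5.91 and 6.42 in female TG cortex, against 4.34, 4.85 and 5.20 in female WT cortex. The male TG cortex held 5.69, 6.14 and 6.51, against 4.31, 4.40 and 4.5 in the male WT cortex. The groups were apart in both sexes, and Gbp3 rose 2.15-fold (95% interval 1.73 to 2.67) in females and 3.2-fold (95% interval 2.65 to 3.86) in males. Its hippocampus arrays were at 4.47, 4.88 and 6.77 in female TG, 4.28, 4.66 and 4.84 in female WT, 4.60, 4.85 and 5.33 in male TG and 4.05, 4.38 and 4.55 in male WT arrays. Every male TG array was above every male WT array there, yet the adjusted p was 0.2. The 4 groups of the region share their spread in that fit. Gbp3 passed in the male hippocampus with the male groups fitted alone and without the library of female TG mouse 4. It did not pass there with the choroid plexus mean as a covariate. Gbp7 was at 5.42, 5.75 and 6.72 in female TG cortex, against 4.82, 5.12 and 5.25 in female WT cortex, and at 5.66, 5.92 and 6.04 in male TG cortex, against 4.86, 5.01 and 5.17 in male WT cortex. Its groups did not overlap, with 0.78 (SE 0.13, adjusted p = 4.25e-05) and 0.88 (SE 0.11, adjusted p = 6.45e-07). Its hippocampus values of 4.78, 5.18 and 5.90 in female TG, 4.69, 4.96 and 5.16 in female WT, 4.93, 5.42 and 5.54 in male TG and 4.65, 4.94 and 5.19 in male WT arrays did not pass. Gbp2 rose 2.7-fold (95% interval 2.11 to 3.45) in the female and 2.07-fold (95% interval 1.67 to 2.56) in the male cortex.

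The largest changes of the set belonged to Lgals3bp, a secreted glycoprotein that binds galectin 3. It lay at 7.49, 8.83 and 9.09 in female TG cortex, against 4.96, 5.36 and 5.65 in female WT cortex. Male TG cortex arrays lay at 7.91, 8.34 and 8.54, against 4.95, 5.20 and 5.55 in male WT cortex. The gap between the groups was wider than either group, and the rise was 9.85-fold (95% interval 7.55 to 12.9) in females and 8.14-fold (95% interval 6.47 to 10.3) in males. Hippocampus arrays lay at 5.57, 7.31 and 8.73 in female TG, against 4.72, 5.08 and 5.73 in female WT arrays, and at 5.42, 6.95 and 7.43 in male TG, against 4.81, 5.09 and 6.13 in male WT arrays. The hippocampus groups overlapped and both rises passed, at 1.93 (SE 0.33, adjusted p = 0.00225) and 1.56 (SE 0.31, adjusted p = 0.00869). The female value was 1.67 (adjusted p = 0.00383) without mouse 4 and 2.04 (adjusted p = 0.000669) without mouse 7.

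Ifi27l2a, a small membrane protein gene strongly induced by type I interferon, had the widest range of the members in each of the 4 TG groups. It lay at 4.14, 6.49 and 8.14 in female TG cortex, against 2.89, 3.22 and 3.42 in female WT cortex. In males it lay at 4.33, 6.08 and 7.40 in TG cortex, against 2.83, 3.10 and 3.44 in WT cortex. No groups overlapped in the cortex, and the rise was 8.54-fold (95% interval 4.68 to 15.6) in females and 6.83-fold (95% interval 4.06 to 11.5) in males. In the hippocampus it was at 3.25, 4.20 and 6.95 in female TG, against 2.98, 3.05 and 3.21 in female WT arrays, and at 3.18, 4.71 and 5.63 in male TG, against 3.01, 3.13 and 3.53 in male WT arrays. The female groups were just apart and the difference passed, at 1.78 (SE 0.42, adjusted p = 0.0177), while the male difference was 1.36 (SE 0.39, adjusted p = 0.0829). Without the library of mouse 4 the female value was 1.43 (adjusted p = 0.0406), and without that of mouse 7 it was 1.96 (adjusted p = 0.00677). Ifi35, a leucine zipper protein, was at 4.80, 5.07 and 5.48 in female TG cortex, against 3.92, 4.14 and 4.25 in female WT cortex, and at 4.86, 5.08 and 5.44 in male TG cortex, against 3.95, 4.19 and 4.5 in male WT cortex. The groups were apart in both sexes, with 0.98 (SE 0.11, adjusted p = 1.4e-07) and 0.89 (SE 0.10, adjusted p = 5.7e-08). Its hippocampus arrays were at 4.06, 4.44 and 5.39 in female TG, 3.88, 4.11 and 4.35 in female WT, 4.13, 4.68 and 4.78 in male TG and 4.05, 4.24 and 4.38 in male WT mice, and it did not pass. Xaf1, a partner of the apoptosis inhibitor XIAP, rose by 0.55 (SE 0.12) and 0.44 (SE 0.10) in female and male cortex.

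**Figure D2:**
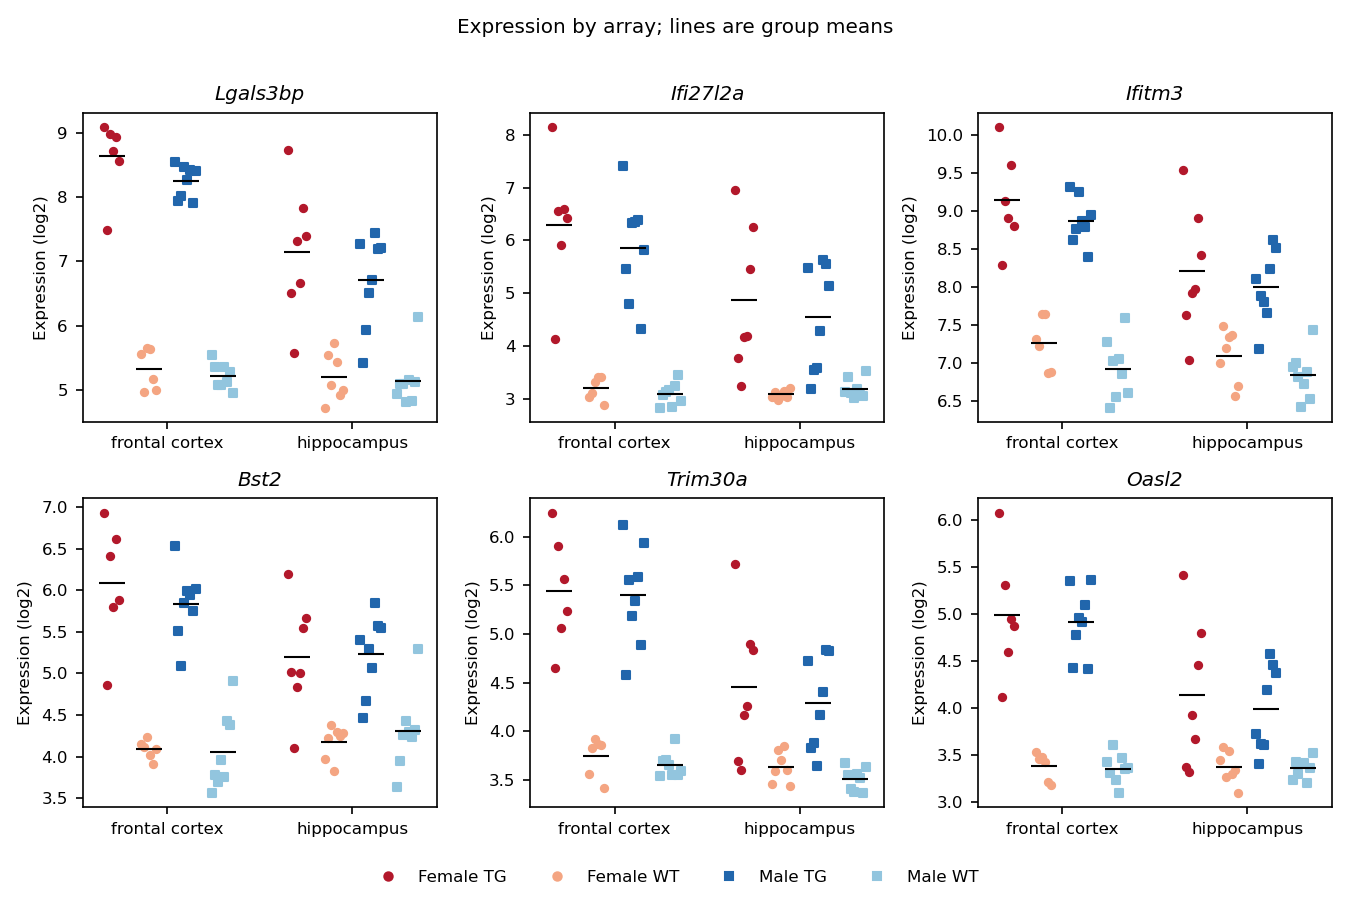
Expression (log2, vertical axis) of the 6 genes with the largest mean TG minus WT change on each array, by region, sex and genotype; points are arrays and lines are group means. In the cortex the TG points of each gene lie above the WT points of the same sex. In the hippocampus TG points reach down into the WT range of the same sex, except for Ifi27l2a in females.

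Whether the TG effect differed between regions was tested over all 8 groups, with the effect averaged over the sexes. The effect was larger in the frontal cortex than in the hippocampus for 19 of 38 members and smaller for none, where 4.05% of all genes were called with a larger effect and 2.84% with a smaller one. The median difference of the members was 0.42 log2 units, beside -0.01 over all genes. The differences were led by Lgals3bp at 1.42 (SE 0.28, adjusted p = 0.000576), Ifi27l2a at 1.36 (SE 0.42, adjusted p = 0.0358), Trim30a at 0.93 (SE 0.22, adjusted p = 0.00421) and Bst2 at 0.91 (SE 0.25, adjusted p = 0.0141). The other 15 were Usp18, Oasl2, Parp9, Gbp3, Ifitm3, Ifi35, Parp14, Rsad2, Ifih1, Gbp7, Irf7, Stat2, Slfn2, Eif2ak2 and Mx1, between 0.90 and 0.32. Without sex averaging, 36 of the 38 members had the larger effect in the cortex in females and 36 in males. At an unadjusted p under 0.05, 31 members were past it, where 20.8% of all genes were. Of the 4 genes that rose in all comparisons, Rtp4 alone missed the test of the region difference, at 0.38 (SE 0.13, adjusted p = 0.0712). Irf9 missed it at 0.41 (SE 0.16, adjusted p = 0.109). The count was 27 without the hippocampus library of mouse 4, 14 without that of mouse 7 and 26 without both. It was also 14 without the frontal cortex array of mouse 4, and 14 on arrays of low choroid plexus level only. With the choroid plexus mean as a covariate it was 20. With the mouse as a block, 24 (fixed term) and 22 (random term) members passed, Ifit1, Parp12 and Rtp4 among those added in each.

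**Figure D3:**
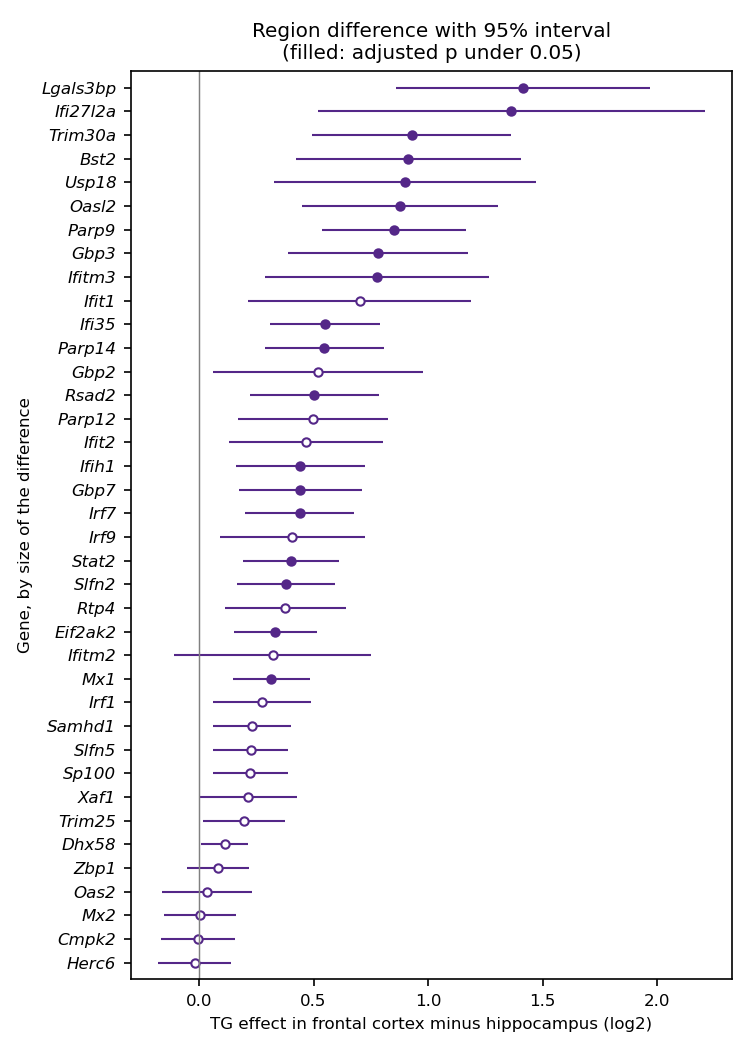
The TG effect in the frontal cortex minus that in the hippocampus (log2 units, horizontal axis) with its 95% interval for each of the 38 genes, averaged over the sexes; filled symbols have an adjusted p under 0.05. The 19 filled symbols all lie to the right of 0, from 0.32 for Mx1 to 1.42 for Lgals3bp.

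The series asks about sex, and no member passed the test of a sex difference of the TG effect. In each region 0 of 38 members passed, where 0% of all genes were called, by limma with adjusted p under 0.05. At an unadjusted p under 0.05 there were 2 members in the cortex, where 6.56% of all genes were past it, and 0 in the hippocampus, where 4.89% were. The 2 were Slfn2, whose effect in females exceeded that in males by 0.43 (SE 0.18) with a 95% interval of 0.06 to 0.80, and Gbp3, for which the difference in effect, females minus males, was -0.57 (SE 0.20) with an interval of -0.99 to -0.16. Their adjusted p was 0.729 and 0.712. For Lgals3bp the interval of the sex difference in the cortex was -0.23 to 0.78 and for Ifi27l2a -0.83 to 1.47, so these arrays leave differences within these intervals possible. The median difference over the members was 0.05 in the cortex and 0.04 in the hippocampus, and -0.06 and -0.08 without both arrays of mouse 4.

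In WT mice no sex difference passed. WT females against WT males gave 0 of 38 members in the cortex, where 0.157% of all genes were called, and 0 in the hippocampus, where 1.02% were called, with limma. At an unadjusted p under 0.05 there were 3 in the cortex, where 11.5% of all genes were past it, and 0 in the hippocampus, where 15.3% were. The 3 were Gbp3 at 0.39 (SE 0.14, adjusted p = 0.282), Herc6 at 0.24 (SE 0.08, adjusted p = 0.24) and Mx2 at -0.21 (SE 0.09, adjusted p = 0.35). WT frontal cortex against WT hippocampus gave 3 members higher in the cortex and none lower, where 19.2% of all genes were called higher and 19.6% lower. Herc6 was the clearest, at 1.0 (SE 0.06, adjusted p = 4.07e-22): WT cortex arrays lay at 5.08, 5.27 and 5.45 in females and 4.83, 5.08 and 5.17 in males, against 4.08, 4.21 and 4.32 and 4.0, 4.07 and 4.28 in WT hippocampus arrays. Cmpk2 differed by 0.33 (SE 0.06, adjusted p = 2.67e-06) and Slfn2 by 0.19 (SE 0.08, adjusted p = 0.0358). The gene with the largest regional difference in WT mice was one of the 3 that did not change in TG mice past the threshold.

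Among TG mice the mean of the members differed from mouse to mouse. It lay between 4.70 and 5.68 in female TG cortex, against 4.11 to 4.32 in female WT cortex, and between 4.80 and 5.35 in male TG cortex, against 4.10 to 4.30 in male WT cortex. In the hippocampus it lay between 4.13 and 5.36 in female TG, against 4.01 to 4.25 in female WT arrays, and between 4.19 and 4.75 in male TG, against 4.05 to 4.31 in male WT arrays. The cortex groups were apart and the hippocampus groups overlapped. Mouse 4 was the highest of its group for 32 of 38 members in the frontal cortex array, which carried the blood and meninges signal. It was also highest for 33 of 38 in the library labelled hippocampus, whose hippocampal field mean was at cortex level. Without that library the female TG hippocampus means ended at 4.81. Mouse 8 was the lowest of the female TG mice for 22 of 38 members in each region. Without mouse 4 the female TG cortex means ended at 5.25, that of mouse 9. Among male TG mice, mouse 40 was highest for 14 members in the cortex and mouse 46 for 16 in the hippocampus, and mouse 41 was lowest for 18 in the hippocampus. Without both arrays of mouse 4 the female cortex count was 28, with Ifitm2, Mx1 and Zbp1 lost, and the median change was 0.61.

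**Figure D4:**
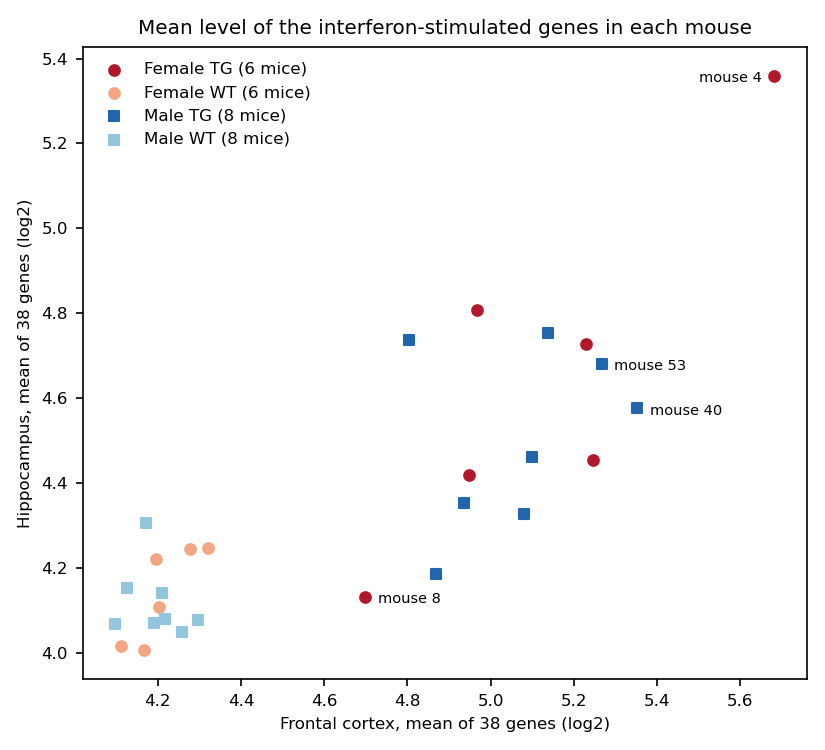
The mean of the 38 genes in the hippocampus (vertical axis) against that in the frontal cortex (horizontal axis), both in log2 units, for the 28 mice with both arrays; circles are females and squares males, darker for TG. Mouse 4 is at 5.68 in the cortex and 5.36 in the library labelled hippocampus, whose hippocampal field markers were at cortex level. Mouse 8 is at 4.70 and 4.13, and no WT mouse is above 4.32 on either axis.

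Choroid plexus signal moved with the male hippocampus result. Of the 8 male TG hippocampus arrays, the 5 above 6 for the choroid plexus mean had member means from 4.33 to 4.75 and the other 3 from 4.19 to 4.46. Among male WT arrays the one above 6, mouse 52, was at 4.31 and the other 7 were at 4.05 to 4.15. With arrays above 6 left out, no member passed in males and 33 of 38 differences were positive, with a median of 0.18. The male differences were then smaller, at 1.01 (adjusted p = 0.509) for Lgals3bp, 0.82 (adjusted p = 0.532) for Ifitm3 and 0.57 (adjusted p = 0.607) for Bst2, with 3 TG arrays left. With all arrays and the choroid plexus mean as a covariate they were 1.28 (adjusted p = 0.0779), 1.04 (adjusted p = 0.078) and 0.71 (adjusted p = 0.234). In females 12 members passed on the arrays at or below 6. The only female TG array above 6 was that of mouse 7, whose Thy1 level was in the WT range. Leaving out that array alone also gave 12, though not all the same genes, so leaving out arrays cannot tell choroid plexus level from that library. With all arrays and the choroid plexus mean as a covariate, the same 8 female members passed as without it. Their median female change was 0.32 over the 38 members in each fit. The 13 choroid plexus markers had a median TG minus WT difference of 1.66 in the male hippocampus and 0.26 in the female hippocampus, though none passed on its own. The part of these markers in the male result was not tested.

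**Figure D5:**
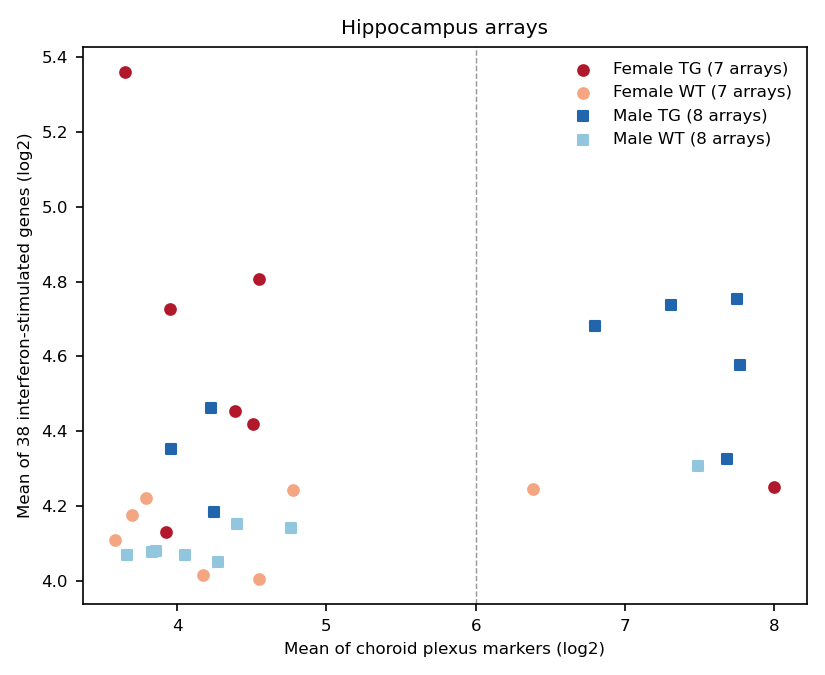
The mean of the 38 genes (log2, vertical axis) against the mean of 13 choroid plexus markers (log2, horizontal axis) on the 30 hippocampus arrays; the dashed line is at 6. Of the 8 arrays to the right of the line, 5 are male TG, and the highest member mean, 5.36, is that of the library labelled female TG mouse 4 at a choroid plexus mean of 3.65.

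The rest of the pathway was described from lists of its parts. The 6 interferon ligands measured, of 21 listed, did not pass in any of the 4 comparisons. Their array means lay between 3.04 and 3.27 in TG arrays and between 3.0 and 3.33 in WT arrays. The 25th percentile of all genes lay between 3.27 and 3.39 over the arrays, so the ligands were among the dim genes. Without detection calls such genes cannot be told from background, and a change of the ligands could be missed. Of 13 receptor and signalling genes, 5 rose and 1 fell in the female cortex, 6 rose and 2 fell in the male cortex, 1 rose in the female hippocampus and 3 rose in the male hippocampus. Over all genes 8.75% were called higher and 10.2% lower in the female cortex, and 8.8% and 11.7% in the male cortex. In the hippocampus 1.54% were called higher in females and 1.04% in males. The type I receptor chain Ifnar2 rose by 0.56 (SE 0.08, adjusted p = 1.25e-05) in the female and 0.51 (SE 0.07, adjusted p = 4.84e-06) in the male cortex, while Ifnar1 differed by 0.01 (SE 0.09, adjusted p = 0.955) and 0.15 (SE 0.08, adjusted p = 0.227). The gamma receptor chain Ifngr1 rose by 0.74 (SE 0.13) and 0.75 (SE 0.12), and Ifngr2 did not pass, at 0.14 (SE 0.17) and -0.03 (SE 0.15). Ptpn6, a phosphatase of blood-derived cells and microglia that restrains cytokine signalling, lay at 5.63, 6.80 and 7.18 in female TG cortex, against 3.79, 4.0 and 4.21 in female WT cortex, and rose by 2.62 (SE 0.18). In males it rose by 2.15 (SE 0.16). The kinase Jak1 was lower in TG cortex, at -0.18 (SE 0.05) and -0.15 (SE 0.05).

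Nucleic acid sensing genes rose in 13 of 19 in the female cortex, and in the male cortex 8 rose and 1 fell. In the hippocampus 2 were higher in each sex. Beside these and the following counts, 8.75% and 8.8% of all genes were called higher in female and male cortex. The shares called higher in female and male hippocampus were 1.54% and 1.04%. The factor Irf8, which microglia need to develop, was at 5.41, 6.33 and 6.81 in female TG cortex, against 3.53, 3.76 and 3.97 in female WT cortex. It rose by 2.45 (SE 0.17) in the female and 2.41 (SE 0.15) in the male cortex and by 1.12 (SE 0.27) and 0.98 (SE 0.25) in the female and male hippocampus. Tlr7, a sensor of single-stranded RNA, rose by 1.30 (SE 0.15) and 0.76 (SE 0.13) in female and male cortex, and Sting1, the adaptor of cytosolic DNA sensing, by 0.66 (SE 0.10) and 0.55 (SE 0.08). Of 38 other genes induced by type I interferon, 26 rose in the female cortex and 21 rose and 1 fell in the male cortex, with medians of 0.40 and 0.28, and 8 and 3 rose in the female and male hippocampus. Rnf213, a large ubiquitin ligase, rose by 1.14 (SE 0.14) in the female and 1.45 (SE 0.12) in the male cortex, and Phf11d by 1.76 (SE 0.20) and 1.84 (SE 0.17). Of 6 GTPases induced by interferon gamma, 4 and 5 rose in female and male cortex and 0 in either hippocampus. Irgm1 was the strongest of these, at 1.26 (SE 0.13) and 1.31 (SE 0.11).

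Markers of microglia rose beside the members. Of 14 measured microglia markers, 14 rose in the female cortex, 13 in the male cortex and 10 in each hippocampus. Over all genes 8.75% were called higher in the female and 8.8% in the male cortex, and 1.54% and 1.04% in female and male hippocampus. The shares called lower were 10.2% in the female and 11.7% in the male cortex. Their mean lay between 7.92 and 8.98 in female TG cortex, against 6.56 to 6.88 in female WT cortex, and between 8.02 and 8.54 in male TG cortex, against 6.28 to 6.75 in male WT cortex. In the hippocampus it was 6.49 to 8.49 in female TG, against 6.37 to 6.63 in female WT arrays, and 6.77 to 7.86 in male TG, against 6.24 to 6.54 in male WT arrays. The female TG extremes were the libraries of mouse 4 (8.49) and mouse 7 (6.49). Within the female TG cortex mouse 8 was lowest for both the microglia mean (7.92) and the member mean (4.70), and mouse 11 was highest for the first (8.98) and mouse 4 for the second (5.68). Within the male TG cortex mouse 40 was highest for both (8.54 and 5.35) and mouse 53 came next for both (8.52 and 5.27). The lowest male microglia mean was that of mouse 41 (8.02) and the lowest member mean that of mouse 50 (4.80). The part of microglial number in the members' rise was not tested. Astrocyte markers rose in 9 of 10 in the female and 8 of 10 in the male cortex. Neuron markers fell in 4 of 10 in the female and 3 of 10 in the male cortex. Of 9 cortical layer markers, 4 fell in the female cortex, and 1 fell and 1 rose in the male cortex. Endothelial markers rose in 1 of 9 in the female cortex, near the share over all genes, and in 3 of 9 in the male cortex. Their part in the members' values was not tested. Of 8 markers of plasmacytoid dendritic cells, 3 passed in each cortex, and these were the members Bst2 and Irf7 and the microglial gene Siglech. Blood cell markers passed in 1 of 8 in the female cortex and in none in the male cortex.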

How the data were processed

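RNA from dissected frontal cortex and hippocampus was labelled with a 3′ IVT kit and hybridised to 58 Affymetrix arrays, per the labels' protocols. The authors deposited log2 expression values, which the submitters' processing notes tie to R 3.2.2 and RMA (robust multi-array average). No source used here names the chip definition behind the rows. Of 17856 rows, 17216 had 1 gene symbol in the platform annotation and 640 had none. Array medians lay between 4.74 and 4.86. Arrays were the replicates, each of 1 mouse, and were grouped by the labels.

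Differences were tested with limma 3.58.1 (R 4.3.3) and Benjamini-Hochberg adjustment over the 17216 named genes. The 4 groups of a region entered each TG against WT and sex fit, and all 8 groups the region fits. Both regions came from the same brain, so the mouse numbers pair them: over 28 mice, deviations from the group means correlated with a median r of 0.11 (-0.03 to 0.36).

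The members and lists were chosen with earlier results of these data known. Array values are given for the 6 members of largest mean change, for the main signalling members and for members with a region or sex difference. The fits were tested on simulated data. Alternatives covered scaling, a filter on dim genes, every row, the eBayes prior, array weights, the groups fitted, single arrays left out, a choroid plexus covariate and the mouse as a block.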

Additional observations from a re-analysis of the deposited data

Results flagged for a closer look

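Over the 38 members and 8 groups, 304 sets of array values were examined for a single array far from the others of its group, and 26 held one, where chance gives about 5%. The library of female TG mouse 4 was the high one 4 times, in the hippocampus for Ifih1 (4.89), Ifit2 (6.53) and Slfn2 (4.34) and in the frontal cortex for Irf7 (4.83). Male WT mouse 52 was also high 4 times, all in the hippocampus, for Bst2 (5.30), Lgals3bp (6.13), Mx1 (3.51) and Rsad2 (4.02). This is the male WT hippocampus array with the highest choroid plexus mean, 7.49, and the part of that signal in these values was not tested.

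The other TG arrays that stood apart were mouse 8 among females, low for Lgals3bp in the frontal cortex (7.49) and for Oas2 in the hippocampus (3.21), mouse 7, low for Samhd1 in the hippocampus (4.45), and mouse 12, high for Slfn5 in the hippocampus (3.73). Among male TG mice, Eif2ak2 was high in mouse 53 (5.17) and Irf7 low in mouse 41 (3.63) in the frontal cortex, and Ifitm2 was low in mouse 45 in the hippocampus (3.91). In WT frontal cortex of females, Gbp2 was low in mouse 14 (3.30), Stat2 low in mouse 6 (4.57), and mouse 5 was low for Parp12 (5.16) and high for Samhd1 (4.98). In WT frontal cortex of males, Parp14 was high in mouse 51 (4.08), Parp9 in mouse 42 (4.94) and Trim30a in mouse 49 (3.92). Sp100 was low in male WT mouse 48 in the frontal cortex (2.85) and in the hippocampus (2.83). In WT hippocampus, Ifit1 was high in female mouse 6 (4.05) and Irf7 low in male mouse 49 (3.07).

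The TG effect differed between regions by its own test for 19 members. The frontal cortex minus hippocampus difference in log2 units was 1.42 for Lgals3bp, 1.36 for Ifi27l2a, 0.93 for Trim30a, 0.91 for Bst2, 0.90 for Usp18, 0.88 for Oasl2, 0.85 for Parp9, 0.78 for Gbp3 and 0.78 for Ifitm3. It was 0.55 for Ifi35, 0.55 for Parp14, 0.50 for Rsad2, 0.44 for Ifih1, 0.44 for Gbp7, 0.44 for Irf7, 0.40 for Stat2, 0.38 for Slfn2, 0.33 for Eif2ak2 and 0.32 for Mx1.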

How the results depend on the processing

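No call of a member turned its direction under any alternative, and 30 of 32 male and 28 of 31 female frontal cortex calls held in all of them that tested the gene. In the hippocampus only Lgals3bp in females did so, of 8 female calls, and 0 of 5 male calls. One alternative kept only genes brighter than the median gene, so fewer members were tested. Over all arrays, 24 members lay below the median gene level. Calls then numbered 13 in the female cortex, 13 in the male cortex, 4 in the female hippocampus and 3 in the male hippocampus. They numbered 8 for the region difference and 1 for WT frontal cortex against WT hippocampus. No TG against WT cortex call of a member still tested was lost. Of the 8608 genes kept, 1035 were called higher in the female cortex and 1156 in the male cortex. Array weights gave 16 in the male hippocampus, where calls over all genes also went up to 616 from 224, and 5 between the WT regions (7153 over all genes, from 6680). Fitting the compared groups alone gave 1 in the female and 15 in the male hippocampus, with 22 and 518 over all genes. A choroid plexus covariate gave 0 in the male hippocampus, with a median change of 0.25 against 0.27 without it, as did arrays of low choroid plexus level alone, an alternative added after seeing the data. Leaving out both arrays of female TG mouse 4, or the hippocampus arrays of mice 4 and 7, also added, gave 13 in the male hippocampus in each. The causes were not tested.

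Leaving out each array in turn gave 28 to 32 calls in the female and 30 to 33 in the male cortex, 3 to 14 in the female and 2 to 13 in the male hippocampus, 14 to 27 for the region difference, 2 to 4 between the WT regions and 0 to 0 for the sex comparisons. The male hippocampus gave 2 without WT mouse 49 or TG mouse 53, 3 without WT mice 38, 39, 42, 47, 48 or 51 or TG mice 40, 46 or 50, 8 without TG mouse 41 and 13 without female TG mouse 4. The female hippocampus gave 14 without TG mouse 8, 12 without mouse 7, 3 without mouse 11 and 4 without mouse 12. With the mouse as a replicate block for the paired regions, the region difference gave 24 calls (fixed) and 22 (random), against 19 without it. The number of arrays limits the precision, and without detection calls a dim gene cannot be told from background.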
